A study of Mus musculus with 6 samples.

Results

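The genes described here are 10 that mark cardiac fibroblasts or make up the proteoglycan and glycoprotein matrix those cells lay down: Pdgfra, Ddr2, Tcf21, Dcn, Lum, Dpt, Fbln1, Fn1, Postn and Gsn. They were taken by name, with earlier results of these data known, and each matched 1 of the 37620 genes in the deposited count table. Fibroblasts are the main matrix-producing cells of the heart. They sit between the muscle cells, carry receptors for platelet-derived growth factor and for collagen, and secrete small leucine-rich proteoglycans such as decorin and lumican, which bind collagen and control how thick its fibrils become. After an infarct, resident fibroblasts are known to become activated over days and then to make periostin and more fibronectin.

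RNA was sequenced from apical heart tissue of wild-type C57/BL6J mice in 6 libraries, 3 a group. In the dexmedetomidine group, mice were infused through the caudal vein with the vehicle of yohimbine, an alpha-2 adrenergic antagonist, and 30 min later with 10 µg/kg of dexmedetomidine, an alpha-2 agonist used as a sedative, and surgery began 20 min after that. In the vehicle group, mice received the vehicle of both agents before surgery, with a timing that the labels do not give. All 6 hearts then underwent 30 min of ischaemia and 120 min of reperfusion, so the comparison is between 2 sets of injured hearts, with no uninjured group. The labels give neither age nor sex, and do not say that the 3 samples of a group came from separate animals, so the p-values below measure the spread between these samples.

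Gene counts summed to 42.7 to 48.6 M in dexmedetomidine libraries and to 50.3 to 56.6 M in vehicle libraries. Transcripts of the mitochondrial genome took 27.1% to 38.2% of gene counts in dexmedetomidine libraries and 22.0% to 25.2% in vehicle libraries. The 10 fibroblast genes were well covered, with 281 to 93442 counts per gene and library. All of them passed the filter on low counts and were tested among 14738 genes. Levels are given as counts per 1000000 counts (CPM) on library sizes scaled by the TMM method, which compares a gene between samples, or as RPKM (CPM per kilobase of the deposited gene length), which compares genes.

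None of the 10 fibroblast genes passed the test. At an adjusted p of 0.05 in edgeR's quasi-likelihood test with Benjamini-Hochberg adjustment over all tested genes, 0 of 10 were called, beside 0% of all genes. The smallest adjusted p of any tested gene in edgeR was 0.101, a value shared by genes whose unadjusted p differ. Among the 10 fibroblast genes the smallest was 0.128, for Lum. At an unadjusted p under 0.05 the count was 6 of 10, of which 5 were higher after dexmedetomidine and 1 was lower, while 21.5% of all tested genes had such a p (12.5% higher and 9.03% lower). DESeq2 called 9.51% of the genes it tested (6.57% higher and 2.94% lower) and limma-voom called 14%, and neither called any of the 10. The smallest adjusted p among the 10 was 0.0577 for Lum in DESeq2 and 0.0570 for Dcn in limma-voom. Leaving out vehicle replicate 3 moved the number of genes that edgeR called, from 0 with all libraries to 1251 of all tested genes (8.31%), and the 10 fibroblast genes were still not among them. In whole tissue, a difference in the number of fibroblasts and a difference in RNA per fibroblast cannot be told apart.

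On the RPKM scale, Gsn and Dcn stood far above the other 8 genes. Gsn averaged 487 RPKM over the 6 libraries (432 to 573) and Dcn averaged 332 RPKM (256 to 439). Gsn was above Dcn in 5 of the 6 libraries, the exception being dexmedetomidine replicate 2, with 432 RPKM for Gsn and 439 RPKM for Dcn. Dpt followed with 50.7 RPKM, Lum with 27.4 RPKM and Fbln1 with 17.5 RPKM. Dcn was above Dpt and Dpt above Lum in all 6 libraries, and Lum was above Fbln1 in 5. Pdgfra averaged 9.95 RPKM, Fn1 9.26 RPKM, Tcf21 7.34 RPKM, Ddr2 5.76 RPKM and Postn 5.49 RPKM. Fbln1 lay above Pdgfra in every library. From Pdgfra down to Postn each gene overlapped the next in its range over libraries, and the order of neighbours held in only 4 or 5 of the 6 libraries. The order also depends on the deposited gene length. That length was 7838 bases for Postn and 1223 for Tcf21. Their longest protein-coding transcripts in the GENCODE M21 annotation have 3205 and 1788 bases, so the places of these genes are uncertain.

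**Figure D1:**
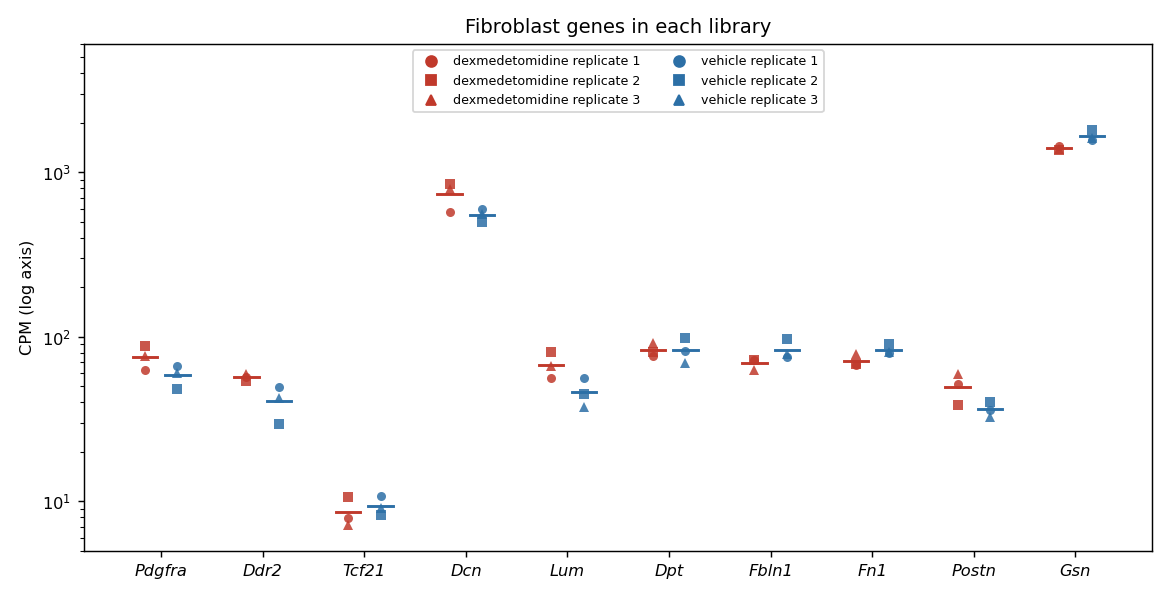
Level of each of the 10 fibroblast genes in each library, in CPM on TMM-scaled library sizes, on a log axis. For each gene, points are the 3 dexmedetomidine libraries on the left and the 3 vehicle libraries on the right, and lines are group means. The groups do not overlap for Lum and Ddr2, which are higher after dexmedetomidine, or for Gsn, Fbln1 and Fn1, which are lower, all as counted, with no trend removed.

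The receptors that define the lineage had higher means after dexmedetomidine. Pdgfra encodes the alpha receptor for platelet-derived growth factor and is the most used surface marker of cardiac fibroblasts. It was at 62.6, 88.4 and 76.0 CPM in dexmedetomidine libraries, against 66.6, 48.1 and 60.4 CPM in vehicle libraries. Dexmedetomidine replicate 1 lay inside the vehicle range and the other two lay above it, so the groups overlapped. The means were 75.6 ± 12.9 CPM in dexmedetomidine and 58.4 ± 9.43 CPM in vehicle libraries (SD, n = 3 each). The log2 fold change was 0.37 ± 0.16 (SE, edgeR adjusted p = 0.226).

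Ddr2 encodes a receptor tyrosine kinase that is activated by fibrillar collagen. Its level was 56.9, 53.5 and 59.4 CPM in dexmedetomidine libraries, against 49.6, 29.5 and 42.3 CPM in vehicle libraries. All 3 dexmedetomidine libraries were above all 3 vehicle libraries, and the spread was wider in the vehicle group, whose replicate 2 was the lowest of the 6. The means were 56.6 ± 2.97 CPM in dexmedetomidine and 40.5 ± 10.2 CPM in vehicle libraries (SD, n = 3 each), with a log2 fold change of 0.48 ± 0.18 (SE, edgeR adjusted p = 0.164). The related receptor Ddr1, which is better known from epithelial cells, had a log2 fold change of -0.62 ± 0.14 (SE, edgeR adjusted p = 0.101), and of -0.25 with the GC and length trend removed.

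Tcf21 encodes a basic helix-loop-helix transcription factor that the epicardium needs to form cardiac fibroblasts and that resident fibroblasts keep. It had the lowest CPM of the 10 genes, at 7.94, 10.7 and 7.22 CPM in dexmedetomidine libraries and 10.7, 8.24 and 9.08 CPM in vehicle libraries. The highest libraries of both groups were nearly level and the groups overlapped. The log2 fold change was -0.12 ± 0.20 (SE, 95% interval -0.56 to 0.32). Its sign turned, at 0.03, when the trend of each library with transcript GC content and deposited gene length was removed.

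Among the small leucine-rich proteoglycans, both members had higher means after dexmedetomidine. Decorin, from Dcn, carries a single glycosaminoglycan chain and coats collagen fibrils. It was at 572, 851 and 785 CPM in dexmedetomidine libraries, against 600.4, 497 and 555 CPM in vehicle libraries. Replicates 2 and 3 of the dexmedetomidine group were above every vehicle library, while replicate 1 lay within the vehicle range. The means were 736 ± 146 CPM in dexmedetomidine and 551 ± 52.1 CPM in vehicle libraries (SD, n = 3 each), with a log2 fold change of 0.42 ± 0.16 (SE, edgeR adjusted p = 0.174).

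Lumican, from Lum, carries keratan sulphate and binds the same fibrils. The Lum level was 56.1, 80.4 and 66.7 CPM in dexmedetomidine libraries, against 55.8, 44.6 and 37.4 CPM in vehicle libraries. The groups did not overlap, but only just, since the lowest dexmedetomidine library and the highest vehicle library were almost level. With means of 67.7 ± 12.2 CPM in dexmedetomidine and 45.9 ± 9.24 CPM in vehicle libraries (SD, n = 3 each), Lum had the largest log2 fold change of the 10 genes, 0.56 ± 0.18 (SE, 95% interval 0.16 to 0.96). Dcn and Lum are neighbours on chromosome 10.

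Dpt encodes dermatopontin, a small matrix protein that binds decorin and collagen. It was at 76.7, 80.2 and 91.1 CPM in dexmedetomidine libraries, against 81.6, 98.7 and 69.4 CPM in vehicle libraries. The dexmedetomidine values all fell inside the vehicle range. The log2 fold change was -0.01 ± 0.15 (SE, 95% interval -0.34 to 0.32), and 0.09 with the GC and length trend removed.

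The glycoproteins of the pericellular matrix did not share a direction. Fbln1 encodes fibulin-1, which binds fibronectin and basement membranes. Its level was 72.6, 72.6 and 62.6 CPM in dexmedetomidine libraries, against 75.8, 96.6 and 78.4 CPM in vehicle libraries. Every dexmedetomidine library was below every vehicle library, with a gap that was small beside the spread. Fbln1 had a log2 fold change of -0.27 ± 0.13 (SE, edgeR adjusted p = 0.272).

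Fn1 encodes fibronectin, the adhesive glycoprotein of provisional matrix. It was at 67.2, 68.5 and 78.3 CPM in dexmedetomidine libraries, against 79.2, 90.3 and 80.3 CPM in vehicle libraries. The groups again did not overlap, and dexmedetomidine replicate 3 lay almost level with the lowest vehicle library. Fn1 had a log2 fold change of -0.22 ± 0.12 (SE, edgeR adjusted p = 0.309).

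Postn encodes periostin, the matrix protein most used to mark activated fibroblasts. Its level was 51.8, 38.4 and 59.0 CPM in dexmedetomidine libraries, against 36.1, 40.2 and 32.5 CPM in vehicle libraries. Replicates 1 and 3 of the dexmedetomidine group were above every vehicle library and replicate 2 was inside their range. The means were 49.7 ± 10.5 CPM in dexmedetomidine and 36.3 ± 3.87 CPM in vehicle libraries (SD, n = 3 each), with a log2 fold change of 0.46 ± 0.17 (SE, edgeR adjusted p = 0.163).

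Gsn encodes gelsolin, which severs and caps actin filaments and also circulates in plasma. Fibroblasts make much of it, but it is not restricted to them. It had the highest level of the 10 genes, at 1442, 1354 and 1385 CPM in dexmedetomidine libraries, against 1571, 1798 and 1616 CPM in vehicle libraries. All 3 dexmedetomidine libraries were below all 3 vehicle libraries, and the dexmedetomidine group had the narrower spread. The means were 1393.5 ± 44.6 CPM in dexmedetomidine and 1662 ± 120.4 CPM in vehicle libraries (SD, n = 3 each), with a log2 fold change of -0.25 ± 0.11 (SE, edgeR adjusted p = 0.232). With the GC and length trend removed the sign turned, at 0.06.

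Groups that did not overlap were thus found for 5 of the 10 genes, of which 2 were higher after dexmedetomidine (Lum and Ddr2) and 3 were lower (Gsn, Fbln1 and Fn1). Among all tested genes the groups did not overlap for 27.6%, with 15.6% higher and 12% lower. The median log2 fold change was 0.18 over the 10 fibroblast genes and 0.0032 over all tested genes. With the GC and length trend removed in edgeR, these medians were 0.087 and 0.043. The mean level of the 10 genes, as a mean of log2 CPM, was 6.45, 6.60 and 6.58 in dexmedetomidine libraries and 6.48, 6.38 and 6.33 in vehicle libraries. Dexmedetomidine replicate 1 lay inside the vehicle range, so the groups overlapped in this joint level of the 10 genes. In GENCODE M21, an annotation of a later build than the mm9 of the counts, Pdgfra, Tcf21, Dpt, Fn1 and Ddr2 have a gene on the opposite strand. Whether counting used strand is not stated, so part of their counts may belong to those genes.

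The share of counts taken by the 10 genes depended on what it was set against. It was 0.379% ± 0.0186 of counts outside the mitochondrial genome in dexmedetomidine libraries and 0.363% ± 0.0152 in vehicle libraries (SD, n = 3 each). Set against all gene counts, which include the larger mitochondrial share of the dexmedetomidine group, it was 0.249% ± 0.0105 in dexmedetomidine libraries and 0.278% ± 0.0109 in vehicle libraries. The order of the groups thus turned with the denominator. Without Gsn, the largest part of the sum, the mean was higher after dexmedetomidine under both denominators. The other 9 genes together took 0.177% ± 0.0247 of counts outside the mitochondrial genome in dexmedetomidine libraries and 0.136% ± 0.0136 in vehicle libraries. Of all gene counts they took 0.116% ± 0.00719 in dexmedetomidine libraries and 0.104% ± 0.00860 in vehicle libraries, where the groups overlapped. With Dcn left out as well, the rest took 0.0698% ± 0.00386 of counts outside the mitochondrial genome in dexmedetomidine libraries and 0.0603% ± 0.00263 in vehicle libraries. Of all gene counts the rest took 0.0459% ± 0.00160 in dexmedetomidine and 0.0461% ± 0.00104 in vehicle libraries, so under that denominator the higher mean rested on Dcn. Within the counts of the 10 genes, Gsn took 53.5% ± 4.38 in dexmedetomidine libraries and 62.6% ± 2.78 in vehicle libraries. Dcn took 28.1% ± 4.33 in dexmedetomidine libraries and 20.8% ± 2.48 in vehicle libraries. As counted, the mix of the 10 transcripts thus held relatively more Dcn and less Gsn after dexmedetomidine. The groups did not overlap in either share, but only just. Replicate 1 of each group came closest, with 58.5% in dexmedetomidine and 59.8% in vehicle for Gsn, and 23.2% and 22.9% for Dcn. The shares of Gsn and Dcn are not independent, since these genes make up most of the sum. With the GC and length trend removed, their log2 fold changes were close, at 0.06 for Gsn and 0.09 for Dcn.

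The direction of each gene went with the base composition of its transcript. In GENCODE M21, the 5 genes with a higher estimate after dexmedetomidine had a GC content of 41.9% to 48.1% in their longest protein-coding transcript, and the 5 with a lower estimate had 48.7% to 57.1%. Stretches of 90 bases of coding sequence from GENCODE M21 (GRCm38, 5′ to 3′ on the coding strand) show the contrast, with every G and C in capitals. They are the stretches whose GC content is closest to that of the whole transcript, and stand for 3 genes with positive and 2 with negative log2 fold changes. These are the 3 fibroblast genes lowest in GC content and the 2 highest, so the size of the contrast is set by this choice.
Lum: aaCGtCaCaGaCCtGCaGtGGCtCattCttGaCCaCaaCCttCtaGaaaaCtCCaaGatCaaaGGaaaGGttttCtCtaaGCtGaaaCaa
Dcn: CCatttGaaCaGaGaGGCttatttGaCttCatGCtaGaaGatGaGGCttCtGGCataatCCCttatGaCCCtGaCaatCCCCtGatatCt
Postn: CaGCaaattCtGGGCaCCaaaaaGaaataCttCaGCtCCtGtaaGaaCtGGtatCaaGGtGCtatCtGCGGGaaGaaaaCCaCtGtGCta
Fbln1: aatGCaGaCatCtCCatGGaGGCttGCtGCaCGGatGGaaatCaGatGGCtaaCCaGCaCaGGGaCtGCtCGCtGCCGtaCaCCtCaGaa
Gsn: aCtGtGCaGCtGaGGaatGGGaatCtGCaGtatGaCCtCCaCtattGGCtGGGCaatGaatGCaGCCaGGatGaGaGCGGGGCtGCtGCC
Of the 90 bases, 38 are G or C in Lum, 39 in Dcn and 40 in Postn, against 49 in Fbln1 and 51 in Gsn.

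Over the 10 genes, the log2 fold change and the GC content had a Pearson r of -0.93 and a Spearman rho of -0.94, given as a description because the genes share the same 6 libraries. The same relation ran through the 14329 tested genes that have a GC value, with an r of -0.60 and a rho of -0.64. When those genes were cut into 5 equal bins of rising GC content, the median log2 fold change was 0.48, 0.15, -0.01, -0.15 and -0.30. Dcn, Lum and Postn fell in the first bin, Pdgfra and Ddr2 in the second, Tcf21 and Dpt in the third, Fbln1 and Fn1 in the fourth and Gsn in the fifth. The log2 fold changes of Dcn (0.42), Lum (0.56) and Postn (0.46) are close to the median of their bin, as is that of Gsn (-0.25). Pdgfra (0.37) and Ddr2 (0.48) lay above the median of theirs, and Tcf21 (-0.12), Fbln1 (-0.27) and Fn1 (-0.22) lay below it, while Dpt (-0.01) was level with it.

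**Figure D2:**
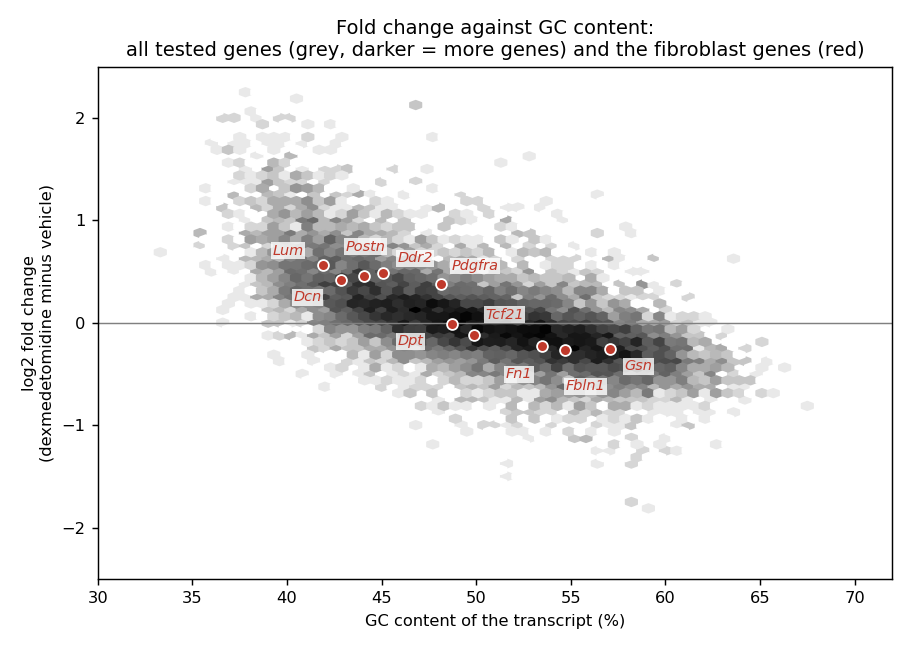
Log2 fold change (dexmedetomidine over vehicle, edgeR) against the GC content of the longest protein-coding transcript, in percent. Shading is the number of tested genes on a log colour scale, and labelled points are the 10 fibroblast genes. A further 30 tested genes lie outside the axes. The fibroblast genes run down the same slope as the cloud, with Lum and Dcn at the upper left and Gsn at the lower right.

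The trend was also read library by library, which is not independent of the fold changes. Deviations from a mean over all 6 libraries cancel out, so opposite signs of rho between the groups partly follow from those fold changes. As deviations from the mean of the 6 libraries, the levels of the 10 genes had a Spearman rho with GC content of -0.41, -0.73 and -0.81 in dexmedetomidine libraries 1 to 3, and of 0.38, 0.66 and 0.89 in vehicle libraries 1 to 3. Over all tested genes with a GC value, rho was -0.14, -0.52 and -0.58 in dexmedetomidine and 0.38, 0.51 and 0.27 in vehicle libraries 1 to 3. The lean was thus weak in dexmedetomidine library 1. All 3 libraries of a group thus leaned the same way, so a difference in base composition between libraries and the treatment cannot be told apart. When the trend with GC content and length over all genes was removed from each library before the edgeR fit, 9 of the 10 estimates moved closer to 0, with Dpt as the exception. The log2 fold change of Lum became 0.13, of Dcn 0.09, of Postn 0.10, of Gsn 0.06 and of Fbln1 -0.06. Those of Pdgfra and Ddr2 were then the largest of the 10, at 0.30 and 0.23. At an unadjusted p under 0.05 the count was then 0 of 10, against 11.7% of all tested genes, and the groups overlapped for all 10, while they did not for 17.9% of all tested genes. For Dcn and Postn the value depended on the transcript whose GC content was used: with the longest transcript of any kind, a choice tried after seeing the data, it was -0.37 for Dcn and -0.65 for Postn.

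**Figure D3:**
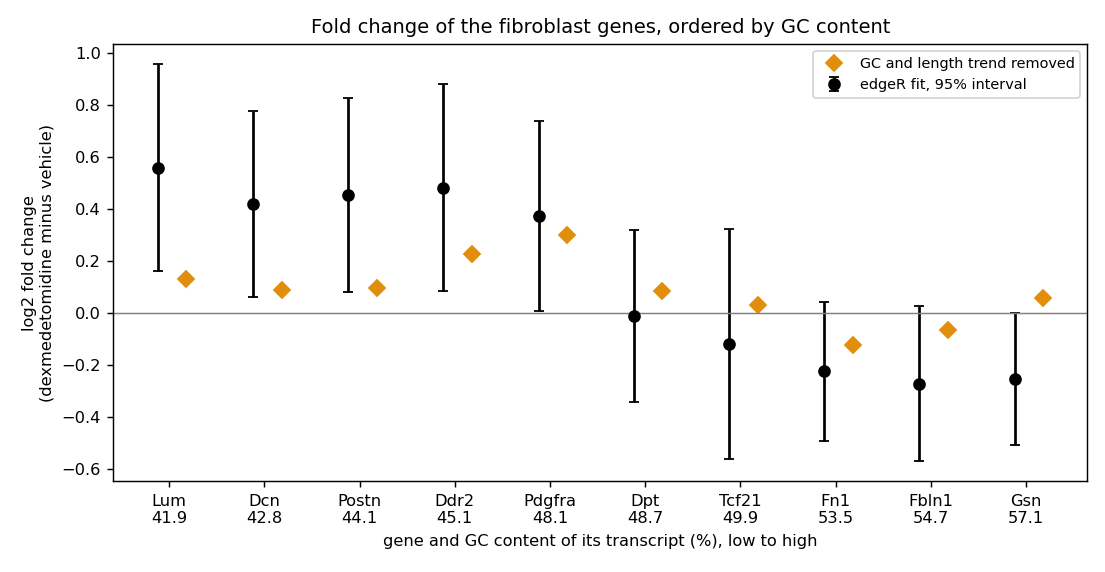
Log2 fold change (dexmedetomidine over vehicle) of the 10 fibroblast genes, ordered by GC content, from edgeR as counted (circles, with 95% intervals) and with the GC and length trend of each library removed (diamonds). With the trend removed the estimates of Lum, Dcn, Postn, Fbln1 and Gsn lie between -0.06 and 0.13.

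Relatives of decorin and lumican were read from a list of 14 further small leucine-rich proteoglycans and their kin, of which 10 were tested. None was called by edgeR, 8 had a positive and 2 a negative log2 fold change, and 4 of the 10 had an unadjusted p under 0.05, all of them higher, while 12.5% of all tested genes were higher at such a p and 9.03% lower. The median log2 fold change of the list was 0.54, and 0.53 with the GC and length trend removed, but single genes moved in opposite ways. Omd went from 1.77 to 0.85 and Ecm2 from 0.42 to -0.23, while Chad went from 1.24 to 1.58 and Fmod from 0.65 to 0.87. Counts were low for Chad, at 1 to 96 per library, and for Omd, at 4 to 80. Chad, Ecm2 and Fmod are named after their values were seen. Asporin and osteoglycin had larger estimates than any of the 10 fibroblast genes. Aspn was at 29.9, 20.5 and 39.5 CPM in dexmedetomidine libraries, against 8.30, 4.80 and 11.7 CPM in vehicle libraries. Ogn was at 106, 124 and 163 CPM in dexmedetomidine libraries, against 42.8, 18.1 and 53.4 CPM in vehicle libraries. The groups did not overlap for either gene, and in both genes dexmedetomidine replicate 3 was the highest library and vehicle replicate 2 the lowest.

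The log2 fold change was 1.86 ± 0.35 for Aspn and 1.78 ± 0.36 for Ogn (SE, edgeR adjusted p = 0.101 for each). DESeq2 called both, with an adjusted p of 8.7e-07 for Aspn and 1.5e-06 for Ogn, and still did with the trend removed, at an adjusted p of 0.00992 for each, in a fit that called 1.73% of all genes. With the trend removed in edgeR, the log2 fold change was 0.83 for Aspn and 0.78 for Ogn. Both transcripts are poorer in GC than any of the 10 fibroblast genes, at 34.3% for Aspn and 36.3% for Ogn. Aspn, Omd and Ogn lie side by side on chromosome 13, and Omd, at only 0.953, 1.75 and 2.06 CPM in dexmedetomidine libraries against 0.512, 0.0806 and 0.778 CPM in vehicle libraries, had a log2 fold change of 1.77 ± 0.67 (SE, edgeR adjusted p = 0.171). Ecm2, the neighbour of Aspn on its other side, was at 0.42 as counted and at -0.23 with the trend removed. Biglycan, the nearest relative of decorin, had a log2 fold change of 0.13 for Bgn, and those of Prelp and Podn were -0.22 and -0.24, all 3 named after their values were seen. Kera, the neighbour of Lum on chromosome 10, and Podnl1 had 0 counts in every library.

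**Figure D4:**
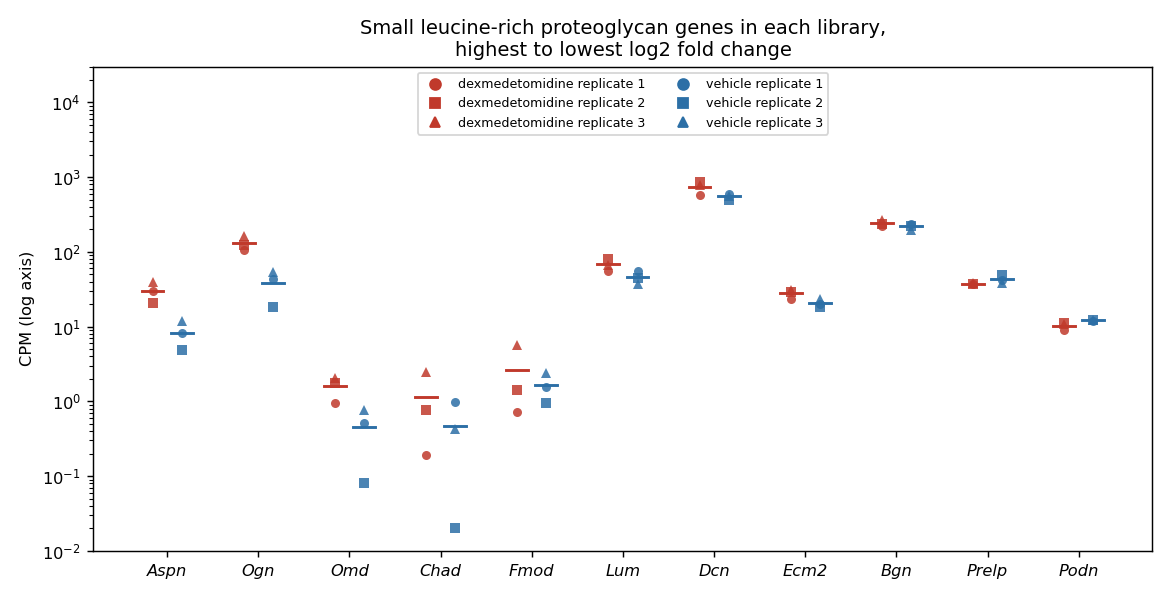
Levels of Dcn, Lum and their tested relatives in each library, in CPM on a log axis, dexmedetomidine libraries left of vehicle libraries for each gene. Genes with a mean under 1 CPM in both groups are left out. Aspn and Ogn show the widest gap between the groups, and Bgn and Dcn the highest levels.

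Other lists around the 10 genes gave 0 calls in edgeR as well, beside the 0% of all genes. The counts below stand beside 12.5% of all tested genes higher and 9.03% lower at an unadjusted p under 0.05, and beside 6.57% called higher and 2.94% called lower by DESeq2. Among 19 tested proteoglycans of other families, 7 estimates were positive and 12 negative, with a median log2 fold change of -0.14. An unadjusted p under 0.05 was found for 2 higher and 4 lower genes, and DESeq2 called 1 higher and 2 lower. Versican, a large hyaluronan-binding proteoglycan, had the highest of those named, with 0.91 ± 0.17 (SE, edgeR adjusted p = 0.101) for Vcan and 0.49 with the trend removed. Cspg4, a proteoglycan of pericytes, was at -0.54 and Gpc1, a membrane-anchored heparan sulphate proteoglycan, at -0.48, and with the trend removed they were at -0.26 and -0.11.

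A list of 24 further fibroblast markers, all tested, had 6 positive and 18 negative estimates and a median log2 fold change of -0.14, which became -0.05 with the trend removed. Of the 24, 1 was higher and 3 were lower at an unadjusted p under 0.05, and DESeq2 called 1 higher and 2 lower, against 21.5% of all genes with such a p and 9.51% called by DESeq2 in either direction. Igfbp6, a secreted binder of insulin-like growth factors, had -0.98 ± 0.23 (SE, edgeR adjusted p = 0.101) and Clec3b, which encodes tetranectin, -0.58. Fap, a surface protease, had 0.92. With the trend removed these were -0.44 for Igfbp6, -0.05 for Clec3b and 0.38 for Fap. Among 16 tested genes of activated fibroblasts, the list in which Postn is usually placed, 6 were positive and 10 negative, with a median of -0.17 and of 0.01 with the trend removed. Of the 16, 2 were higher and 1 was lower at an unadjusted p under 0.05, and DESeq2 called 1 higher, both under those shares of all genes. Lox, which encodes the enzyme that cross-links collagen, had 0.86 ± 0.15 (SE, edgeR adjusted p = 0.101) and kept 0.55 with the trend removed. The collagen gene Col8a1 had 0.35.

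Partners and relatives of the 10 proteins also had estimates of both signs. Over these lists together with Ddr1, DESeq2 called Pdgfd and Tcf4 as higher and Fbln2, Capg and Ddr1 as lower. With the trend removed DESeq2 called none of these genes, in a fit that called 1.73% of all genes. Of the 5 genes of the platelet-derived growth factor axis beside Pdgfra, Pdgfd was at a log2 fold change of 0.75 ± 0.18 (SE, edgeR adjusted p = 0.101), which became 0.11 with the trend removed, while Pdgfrb, the beta receptor, was at -0.15 and Pdgfb at -0.28, both of which turned sign with the trend removed, at 0.04 and 0.11. Of the 5, 1 was higher at an unadjusted p under 0.05. Of 7 genes of fibulins and the related hemicentins beside Fbln1, 5 were negative, with a median of -0.17 and of -0.23 with the trend removed. Fbln2 was at -0.54 ± 0.17 (SE, edgeR adjusted p = 0.124), Hmcn1 at 0.57 and Hmcn2 at -0.53, and 1 of the 7 was higher and 1 lower at an unadjusted p under 0.05. With the trend removed Fbln2 was at -0.29, Hmcn1 at 0.38 and Hmcn2 at -0.31. Leaving out vehicle replicate 2 gave -0.34 for Fbln2 and -0.20 for Hmcn2, and leaving out dexmedetomidine replicate 3 gave 0.38 for Hmcn1. Of 8 fibronectin receptor genes 6 were positive, with a median of 0.29 that became 0.06 with the trend removed, and Itgav was at 0.45 ± 0.13 (SE, edgeR adjusted p = 0.115), Itga4 at 1.31 and Itgb3 at -0.44. With the trend removed Itgav was at 0.04 and Itga4 at 0.63. Itga4 was also at 0.63 without dexmedetomidine replicate 3 and at 1.97 without vehicle replicate 3. At an unadjusted p under 0.05, 2 of the 8 were higher and 1 was lower. Of 5 tested relatives of gelsolin, Capg was at -0.64, Flii at -0.34 and Scin at 0.30, and 2 were lower at an unadjusted p under 0.05. Removing the trend gave -0.31 for Capg, -0.11 for Flii and 0.24 for Scin. Of 6 genes that act with TCF21 or against it, Tcf4 was at 1.23 ± 0.30 (SE, edgeR adjusted p = 0.109), Tcf12 at 0.38 and Id1 at -0.40. With the trend removed Tcf4 was at 0.58, Tcf12 at 0.12 and Id1 at -0.09, and the median of the 6 was -0.20 as counted and 0.01 with the trend removed. At an unadjusted p under 0.05, 2 of the 6 were higher and 1 was lower.

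Markers of other cells in the apex piece were read beside the fibroblast genes. The 12 cardiomyocyte markers summed to 51468 to 57825 CPM in dexmedetomidine libraries and to 59297 to 71196 CPM in vehicle libraries, without overlap. Their mean log2 difference was -0.22, and -0.08 with the trend removed. The 10 endothelial markers summed to 1993 to 2302 CPM in dexmedetomidine libraries and 2141 to 2331 CPM in vehicle libraries. The 9 mural markers summed to 1576 to 1864 CPM in dexmedetomidine libraries and 1225 to 1385 CPM in vehicle libraries, although their mean log2 difference was -0.11. The 10 macrophage markers summed to 348 to 475 CPM in dexmedetomidine libraries and 410.3 to 456 CPM in vehicle libraries. The 7 neutrophil markers summed to 50.2 to 205 CPM in dexmedetomidine libraries and 66.5 to 127 CPM in vehicle libraries.

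The remaining marker sums overlapped between the groups. The 8 epicardial or mesothelial markers summed to 25.9 to 28.8 CPM in dexmedetomidine libraries and 22.0 to 43.2 CPM in vehicle libraries, and the 6 Schwann cell markers to 12.4 to 18.3 CPM in dexmedetomidine and 11.99 to 13.6 CPM in vehicle libraries. The 3 endocardial markers summed to 51.4 to 77.0 CPM in dexmedetomidine libraries and 54.5 to 77.9 CPM in vehicle libraries, and the 5 erythroid genes to 391.9 to 723 CPM in dexmedetomidine and 412 to 643 CPM in vehicle libraries. The 6 lymphocyte markers summed to 2.08 to 2.68 CPM in dexmedetomidine libraries and 0.990 to 2.52 CPM in vehicle libraries. The 6 adipocyte markers summed to 0.0389 to 1.03 CPM in dexmedetomidine libraries and 0 to 0.359 CPM in vehicle libraries, and 1 of them had 0 counts in every library. The part of these cells in the values of the 10 fibroblast genes was not tested.

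**Figure D5:**
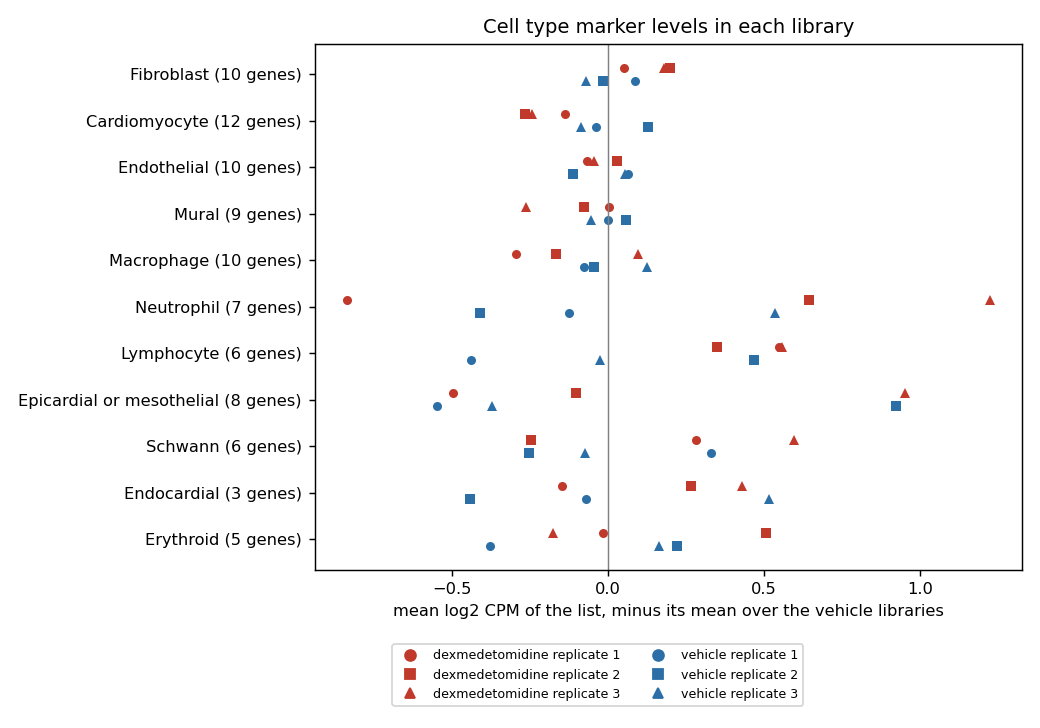
Mean log2 CPM of the 10 fibroblast genes and of the markers of 10 other cell types in each library, minus the mean of the vehicle libraries. Dexmedetomidine libraries are drawn above vehicle libraries, and adipocyte markers, none of which was tested, are left out. The cardiomyocyte markers are lower in all dexmedetomidine libraries, and the fibroblast genes overlap.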

How the data were processed

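Polyadenylated RNA from apical heart tissue, 1 µg a sample, was made into libraries with poly-T beads and an NEBNext Ultra kit, per the labels. The authors deposited raw counts per gene with a gene length in bases. Trim Galore, HTSeq and the build mm9 were used, per the submitters' processing notes. The sources used here do not give the aligner, tool versions, annotation or strand setting.

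The table held 37620 genes, of which 32897 matched a symbol, and 5 entries that name no gene, which were left out. Of all reads in the table, 28.0% to 39.5% were not unique, 2.33% to 3.63% lay in no gene and 1.83% to 2.37% were ambiguous. Every pair of libraries differed by more than sampling noise (chi-square per degree of freedom 29.0 to 446).

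Groups came from the labels. Counts were tested with edgeR 4.0.16 in R 4.3.3 (quasi-likelihood F test, robust, two-sided, filterByExpr, TMM), adjusted by Benjamini-Hochberg over 14738 genes with a threshold of 0.05. Log2 fold changes are dexmedetomidine minus vehicle. CPM are computed per 1000000 counts on TMM-scaled library sizes, and mean log2 levels use a prior count of 2. The common biological coefficient of variation was 22.8%. Alternatives were DESeq2 1.42.0, limma-voom (limma 3.58.1) with quality weights, DESeq2 size factors, the unfiltered table, a minimum mean CPM of 5, a replicate block, each library left out, a prior count of 0.5, and removal of each library's trend on GC content and length, fitted with mgcv 1.9.3 (basis size 8) and entered as offsets. GC content and sequences came from GENCODE M21 (GRCm38); since the counts are on mm9, its coordinates are not printed. Of the tested genes, 14329 had a GC value. The edgeR fit as counted and with the trend removed, DESeq2 as counted and limma-voom were run on simulated counts. Those counts held no GC or length trend, and the other alternatives were not run on them.

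The 10 genes and the lists were chosen with earlier results of these data known, and the lists serve as description only. Named are all 10 genes, the 3 genes of each list with the smallest p, and those said to be named after their values were seen. A gene that this rule takes is not reported here. Whole-sample permutation was not used, since 3 against 3 libraries cannot give an exact p under 0.1.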

Additional observations from a re-analysis of the deposited data

How the results depend on the processing

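The 10 fibroblast genes had 0 calls in each of the 16 alternatives. Of the 160 log2 fold changes of these genes over the alternatives, 140 kept their direction and 20 were reversed, none of them past the threshold. Dpt, at -0.01, became 0.0117 with a mean CPM of at least 5, 0.0263 with limma-voom and 0.0006 with the replicate block, and ranged from -0.12 to 0.13 with 1 library left out. With the GC and length trend removed in edgeR, with the replicate block, in DESeq2 and with GC taken from the longest transcript of any kind, Dpt was 0.0850, 0.0845, 0.0766 and 0.1058, Tcf21 0.0301, 0.0312, 0.0211 and 0.0459, and Gsn 0.0576, 0.0565, 0.0489 and 0.0681. Under the same 4 settings Pdgfb was 0.1082, 0.1185, 0.0990 and 0.1167, and Pdgfrb 0.0417, 0.0415, 0.0319 and 0.0486. The last setting, chosen after seeing the data, also gave -0.3706 for Dcn and -0.6453 for Postn, and a median over the 10 genes of 0.0570. With 1 library left out, Lum ranged from 0.42 to 0.72, Dcn from 0.30 to 0.57, Ddr2 from 0.30 to 0.65, Pdgfra from 0.25 to 0.49, Postn from 0.31 to 0.61, Tcf21 from -0.30 to -0.0070, Fbln1 from -0.34 to -0.16, Fn1 from -0.30 to -0.16 and Gsn from -0.30 to -0.19. The mean level of the 10 genes moved by less than the spread between replicates.

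The number of genes called, 0 in edgeR, was 406 without a filter, 1250 in DESeq2, 2063 in limma-voom, 236 in DESeq2 with the trend removed and 0 to 1251 with 1 library left out. It was 1251 without vehicle replicate 3, 7 without dexmedetomidine replicate 1 and 5 without dexmedetomidine replicate 2. The cause was not tested. Among the named genes outside the 10, 19 passed the threshold in limma-voom, 14 in DESeq2, 12 without vehicle replicate 3, 6 with the replicate block, 5 without a filter and 3 in DESeq2 with the trend removed.

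The labels do not say whether replicate numbers pair the samples. Deviations of same-numbered libraries from their group means correlated at -0.0547, 0.0361 and 0.153, against -0.187 to 0.150 for differently numbered ones. With 3 libraries a group, whose deviations are tied to each other, these values cannot decide whether the samples are paired. With the replicate block 636 genes were called, and 32 with the block and the trend removed, with none of the 10 among them. In edgeR the block gave an adjusted p of 0.000808 for Aspn and 0.00748 for Ogn, and also called Vcan, Lox, Igfbp6 and Tcf4. With the block and the trend removed, edgeR's adjusted p was 0.0623 for Aspn and 0.122 for Ogn.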
